A study of Rattus norvegicus with 4 samples.

Results

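Bile acid sensing, synthesis and transport was followed through 7 genes of rat liver, taken by symbol from the annotation of the array. They were the nuclear receptor genes Nr1h4 (FXR) and Nr0b2 (SHP), the bile acid synthesis gene Cyp7a1, the uptake transporter genes Slc10a1 and Slco1a4, and the efflux transporter genes Abcc2 and Abcc4. The 7 genes were represented by 11 of the 1432 probes that carry a single gene name, among 958 named genes in all. Male Sprague-Dawley rats of 250 to 300 g had been injected intraperitoneally with alpha-naphthylisothiocyanate (ANIT) at 75 mg/kg in olive oil, and controls had received olive oil alone. Livers were taken 18 h later, RNA from the 3 rats of each treatment was pooled, and poly(A) RNA of the ANIT pool and of the olive oil pool was hybridised together to spotted cDNA arrays. Arrays 1 and 3 had the ANIT RNA in Cy5, whereas arrays 2 and 4 had it in Cy3. All 4 arrays carried the same pair of pools, so the treatment had 1 replicate and its effect could not be tested. The arrays are technical repeats, and every SD below is the spread between arrays with the same labelling, combined from both labellings (n = 4 arrays).

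Bile acids are made from cholesterol in hepatocytes, and Cyp7a1 catalyses the rate-limiting step of the main pathway. Bile acids bind FXR, which with its partner RXR induces SHP, and SHP in turn represses transcription of Cyp7a1. Slc10a1 (NTCP) takes conjugated bile salts up from blood with sodium, and Slco1a4 (Oatp2) takes up organic anions and bile salts without it. Abcc2 (MRP2) pumps conjugated organic anions into bile, and Abcc4 (MRP4) exports bile salts back into blood. ANIT is a liver toxicant that injures bile duct cells and stops bile flow in rats.

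Relative to the median probe, Nr0b2 was 2.57-fold higher in the ANIT pool than in the olive oil pool. Nr1h4 was 1.60-fold lower, Slc10a1 1.42-fold lower and Cyp7a1 1.40-fold lower, and the efflux genes lay closest to 0 among the 7. Relative to the median probe, Slc10a1 was above 0 with ANIT in Cy5 and below 0 with ANIT in Cy3. In the values as deposited, Abcc4 had a mean log2 ratio of 0.36, farther from 0 than Slc10a1, Cyp7a1 and Slco1a4. The Slco1a4 probes disagreed, with 1 of them 2.14-fold lower and the other 1.21-fold higher. A ratio was counted as at least 2-fold where its mean was that large and all 4 arrays, each centred on its median over all probes, had the sign of the mean. By this rule 1 of the 7 genes, Nr0b2, was higher, against 1.25% of all 958 genes. None of the 7 genes (0) was at least 2-fold lower, against 1.15% of all genes. A smaller cut of 1.2-fold lower was passed by Nr1h4 and Cyp7a1, 2 of 7, against 5.11% of all genes. In the other direction Nr0b2 alone passed 1.2-fold, 1 of 7 against 6.16% of all genes. The median over the 7 genes was -0.41 on the log2 scale, against -0.04 over all genes. That median is the gene mean of Slco1a4, an average over its disagreeing probes. Because the pools are whole liver RNA, fewer cells of a type and less RNA per cell cannot be told apart.

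The values are deposited log ratios of both channels, read here as log2 of ANIT over olive oil. The table states neither base nor direction, so the direction is the likely one, taken from sample titles that name ANIT and from ANIT being listed as the second channel. That the Nr0b2 ratios kept their sign under both labellings bears on whether the table was already turned to one treatment ratio, not on its direction. The arrays differed by dye. Medians over all probes were -0.53, 0.85, -0.53 and 0.83 on arrays 1 to 4, and Pearson's r across the 1936 probes, which are not independent, was 0.958 and 0.979 between arrays of one orientation and -0.383 to -0.370 between opposite orientations. The difference between orientations (the mean deposited ratio with ANIT in Cy5 less that with ANIT in Cy3, here called the dye difference) had a median of -1.25 over all probes. On the 11 probes of the bile acid genes it ran from -0.90 to -0.031, above that median in each case. Named probes within this range of dye difference numbered 488, and 3.07% of them were counted as at least 2-fold higher and 2.46% as at least 2-fold lower. Centring subtracted medians of opposite sign, after which each of the 11 probes was higher with ANIT in Cy5 than with ANIT in Cy3, so that deposited and centred values are both given below. Spot brightness was not analysed here, and the number of arrays limits the precision.

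**Figure D1:**
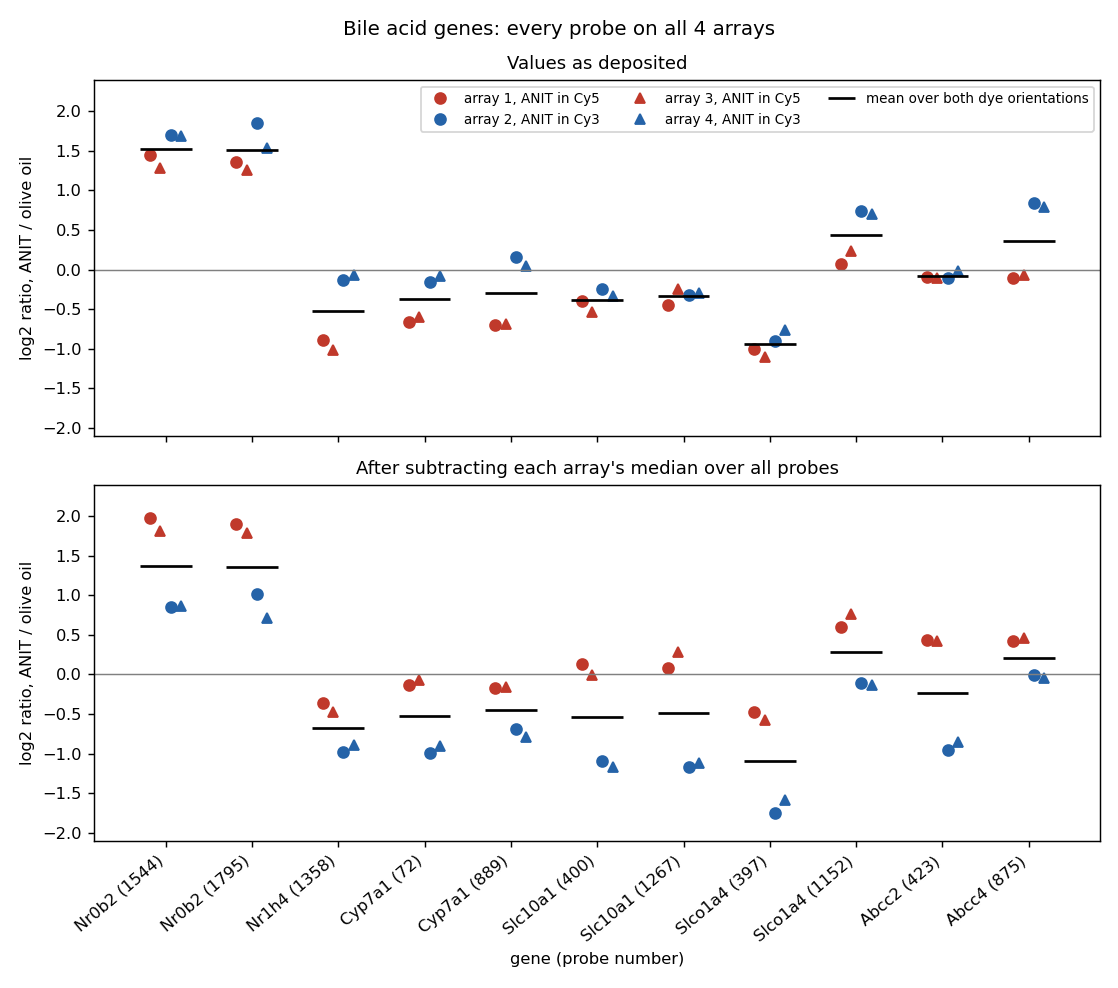
Log2 ratio of ANIT over olive oil for each of the 11 probes on 4 arrays, as deposited (upper panel) and after subtracting the array median over all probes (lower panel). Red points are arrays with ANIT in Cy5, blue points arrays with ANIT in Cy3, circles arrays 1 and 2, triangles arrays 3 and 4, and black lines the mean over both orientations; both Nr0b2 probes lie above 0 on every array in both panels, whereas the Slc10a1 probes lie below 0 on every array as deposited and split by dye after centring.

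Nr0b2 encodes SHP, a nuclear receptor without a DNA-binding domain that acts as a repressor. Its probe 1544 had deposited log2 ratios of 1.44, 1.69, 1.28 and 1.69 on arrays 1 to 4. Its probe 1795, from a different cDNA clone, had 1.37, 1.86, 1.26 and 1.54. All 8 values lay above 1 as deposited, the ranges of the probes overlapped, and arrays with ANIT in Cy3 were higher. After centring, the means were 1.38 ± 0.084 for probe 1544 and 1.35 ± 0.16 for probe 1795. The gene mean was 1.36 ± 0.098, the 7th highest of the 958 genes. With ANIT in Cy3 alone the centred mean was 0.86, under 2-fold, and with ANIT in Cy5 alone it was 1.87. Of the 100 probes nearest to each in dye difference, 1 was higher than probe 1544 and 3 were higher than probe 1795.

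The genes outside the 7 whose centred values lay nearest to those of Nr0b2 over the 4 arrays were Stat3, Orm1 and Lbp. Likeness was measured as the Euclidean distance over the 4 array values, which share the same pools. Stat3, a transcription factor of cytokine signalling, lay at a distance of 0.26 and had a mean of 1.25 ± 0.059. Orm1 and Lbp, which encode acute phase proteins of plasma, lay at 0.39 and 0.41.

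Nr1h4 encodes FXR, the bile acid receptor, and had 1 probe (1358). Its deposited ratios were -0.90, -0.13, -1.01 and -0.064 on arrays 1 to 4. Every array lay below 0, but the arrays with ANIT in Cy5 were much lower than those with ANIT in Cy3, which lay near 0. The centred values were -0.36, -0.98, -0.48 and -0.89, which reverses which orientation is lower. The centred mean was -0.68 ± 0.073, the 21st lowest of 958 genes, and of the 100 probes nearest in dye difference 98 were higher. The nearest genes over the 4 centred arrays were Terf1 (distance 0.11), which encodes a telomere-binding protein, Cd1d1 (0.31), which presents lipid antigens, and Slc46a1 (0.42), a folate transporter gene. On each array Nr0b2 exceeded Nr1h4, by 2.30, 1.91, 2.28 and 1.68. Such a difference between genes of one array is free of centring, although not of the dye difference of each probe.

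Cyp7a1 encodes cholesterol 7alpha-hydroxylase and had a pair of probes from the same cDNA clone. Probe 72 had deposited ratios of -0.66, -0.15, -0.61 and -0.082 on arrays 1 to 4. Probe 889 had -0.70, 0.16, -0.69 and 0.039. Both probes were clearly below 0 with ANIT in Cy5 and close to 0 with ANIT in Cy3, where probe 889 lay on the other side of it. The centred means were -0.53 ± 0.052 and -0.45 ± 0.05. The gene mean was -0.49 ± 0.014 (40th lowest of 958), with all 4 centred values below 0, from -0.85 to -0.12. By distance over the centred arrays its nearest genes were Slc46a1 (0.16), Wt1 (0.16), which encodes a transcription factor, and Itgb5 (0.26), an integrin gene. Nr0b2 exceeded Cyp7a1 on every array, by 1.64 to 2.08. Nr1h4 lay below Cyp7a1 on every array too, but by 0.043 (array 4) to 0.36 (array 3), with a mean difference of -0.19 ± 0.086.

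Slc10a1 is the sodium-dependent bile salt uptake gene of the hepatocyte membrane that faces blood. Both of its probes came from the same cDNA clone. As deposited, probe 400 had -0.40, -0.25, -0.54 and -0.34 on arrays 1 to 4, and probe 1267 had -0.45, -0.33, -0.25 and -0.30. All 8 values were below 0, and the orientations overlapped for probe 1267 but not for probe 400. The dye differences of -0.18 and -0.041 were among the smallest of the 11 probes. After centring, the gene had 0.10 and 0.13 on arrays 1 and 3 against -1.13 and -1.14 on arrays 2 and 4. It therefore failed the sign rule after centring, although its mean of -0.51 ± 0.016 was lower than that of Cyp7a1. When signs were taken from the deposited values, the genes at least 1.2-fold lower were Nr1h4, Slc10a1 and Slco1a4, 3 of 7 against 4.70% of all genes. Nr0b2 was again the 1 gene at least 1.2-fold higher, against 9.50% of all genes. Of the 100 probes nearest in dye difference, 95 were higher than probe 400 and 96 higher than probe 1267. Its nearest genes over the centred arrays were Cyp4f4 (0.14), a cytochrome P450 gene, the pseudogene Eif5-ps6 (0.15) and Tspo (0.16), which encodes a mitochondrial membrane protein.

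Slco1a4 was the gene whose probes disagreed. Probe 397 had deposited ratios of -1.01, -0.90, -1.11 and -0.77, all below 0. Probe 1152, from another cDNA clone, had 0.067, 0.74, 0.23 and 0.70, all above 0. The values of the probes did not overlap on any array. On arrays 1 to 4 probe 1152 exceeded probe 397 by 1.08, 1.64, 1.34 and 1.46, a mean of 1.38 ± 0.16. The centred means were -1.10 ± 0.091 for probe 397 and 0.28 ± 0.081 for probe 1152. Probe 397 was the 14th lowest of the 1432 named probes and was counted as at least 2-fold lower, against 1.26% of named probes. Probe 1152 ranked 172nd from the top and had centred values of 0.60 and 0.76 with ANIT in Cy5 against -0.10 and -0.13 with ANIT in Cy3. The gene mean of -0.41 ± 0.036 describes neither probe. Slco1a4 belongs to a family of closely related transporter genes, and which transcripts each clone detects was not tested. Slc10a1 lay above probe 397 on all 4 arrays, by 0.45 to 0.71. Probe 397 was the lowest of the bile acid probes on every array, but Nr1h4 lay close to it on arrays 1 and 3. There Nr1h4 had -0.90 and -1.01 as deposited, against -1.01 and -1.11 for probe 397.

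Abcc2, the export pump for conjugates at the bile canaliculus, had 1 probe (423). Its deposited ratios of -0.091, -0.11, -0.11 and -0.023 were all slightly below 0 and hardly differed by dye. The centred values were 0.44, -0.96, 0.43 and -0.85, and their mean was -0.23 ± 0.054. The sign therefore differed by orientation after centring, and as deposited the mean was -0.082. Abcc2 stood above Slc10a1 on each array, by 0.18 to 0.34.

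Abcc4, the exporter towards blood, also had 1 probe (875). Its deposited ratios were -0.11, 0.84, -0.065 and 0.79 on arrays 1 to 4. It was near 0 with ANIT in Cy5 and well above 0 with ANIT in Cy3, the most negative dye difference of the 11 probes (-0.90). The centred mean was 0.21 ± 0.029, or 1.16-fold, with 0.43 and 0.47 on the Cy5 arrays and -0.0013 and -0.041 on the Cy3 arrays. Abcc4 exceeded Abcc2 by 0.95 and 0.81 on arrays 2 and 4, but the differences on arrays 1 and 3 were -0.015 and 0.040. On these arrays a difference between the efflux genes was thus present in one dye orientation and not in the other, with a mean of 0.45 ± 0.078. The dye difference of the Abcc2 probe was -0.031. With each probe set against the 100 probes nearest in dye difference, Abcc4 lay above 0 and Abcc2 below 0 on all 4 arrays. That setting brings the orientations together by construction. Abcc4 exceeded the uptake gene Slc10a1 on all 4 arrays, by 0.32 and 0.33 with ANIT in Cy5 and by 1.13 and 1.10 with ANIT in Cy3.

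**Figure D2:**
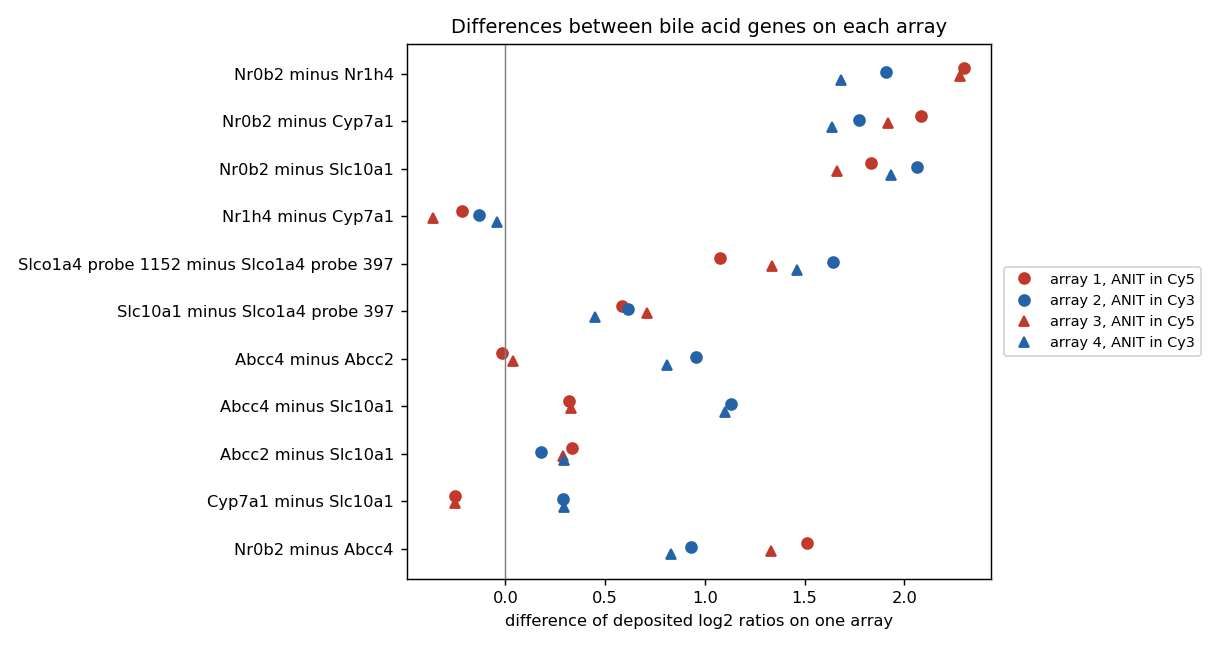
Difference between the deposited log2 ratios of 2 genes (or of the 2 Slco1a4 probes) on the same array, with 1 point per array; red marks ANIT in Cy5 and blue ANIT in Cy3, circles arrays 1 and 2 and triangles arrays 3 and 4. Nr0b2 lies above each gene it is set against on all 4 arrays, while Abcc4 minus Abcc2 is near 0 on the Cy5 arrays and 0.81 to 0.95 on the Cy3 arrays.

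Ordered by centred gene mean, Nr0b2 was highest (1.36), followed by Abcc4 (0.21), Abcc2 (-0.23), Slco1a4 (-0.41), Cyp7a1 (-0.49), Slc10a1 (-0.51) and Nr1h4 (-0.68). Cyp7a1 and Slc10a1 cannot be ordered. Their difference was -0.25 on arrays 1 and 3 and 0.29 and 0.30 on arrays 2 and 4. The step from Nr0b2 down to Abcc4 was present on every array, at 0.83 to 1.51. Nor was Nr1h4 lowest throughout, since on arrays 2 and 4 Slc10a1 lay below it (-1.13 and -1.14 against -0.98 and -0.89, centred). The place of Slco1a4 in the order is that of an average over disagreeing probes.

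**Figure D3:**
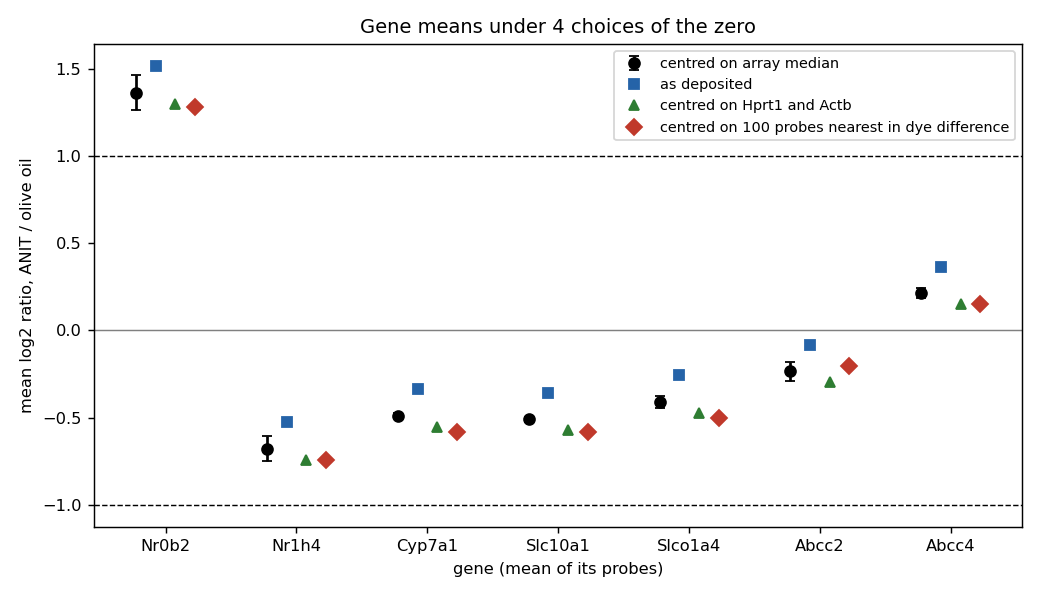
Mean log2 ratio of ANIT over olive oil for each gene (mean of its probes) with 0 set in 4 ways; error bars on the black points show the SD between arrays of like labelling and dashed lines mark 2-fold. Nr0b2 stays above 2-fold (1.28 to 1.52) and Nr1h4, Cyp7a1, Slc10a1, Slco1a4 and Abcc2 stay below 0 under each, with Slco1a4 an average of disagreeing probes.

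Where 0 lies affects the small ratios. Hprt1 and Actb, spotted as housekeeping genes, had centred means of 0.086 ± 0.027 and 0.040 ± 0.068. Centred on these genes, Nr0b2 had 1.30, Nr1h4 -0.74, Cyp7a1 -0.55, Slc10a1 -0.57, Abcc2 -0.30 and Abcc4 0.15. When each probe was instead set against the median of the 100 probes nearest to it in dye difference, the values were 1.28 for Nr0b2, -0.74 for Nr1h4, -0.58 for Cyp7a1 and -0.58 for Slc10a1. Arrays of opposite labelling come close together by this construction. On arrays 1 to 4 Nr0b2 then had 1.32, 1.38, 1.23 and 1.19, Slc10a1 had -0.58, -0.57, -0.57 and -0.60, and Abcc2 had -0.17, -0.24, -0.22 and -0.17. Each of the 7 gene means had 1 sign on all 4 arrays in this setting, Nr0b2 and Abcc4 above 0 and the others below. The Slco1a4 probes still disagreed, at -1.25 to -1.11 for probe 397 and 0.11 to 0.29 for probe 1152. With either of these zeros 4 of 7 genes (Nr1h4, Cyp7a1, Slc10a1 and Slco1a4) had a mean at least 1.2-fold lower and lay below 0 on all 4 arrays. The share of all genes was 8.35% with the housekeeping zero and 10.6% with the near-probe zero. Among the 4 genes, Slco1a4 was counted on its gene mean, although probe 1152 lay above 0. Read as a Cy5 over Cy3 ratio and turned on the Cy3 arrays, the table would put Nr0b2 at 0.50 and none of the 7 genes at 2-fold. In that reading 0 of all 958 genes were at least 2-fold higher and 0 were at least 2-fold lower.

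**Figure D4:**
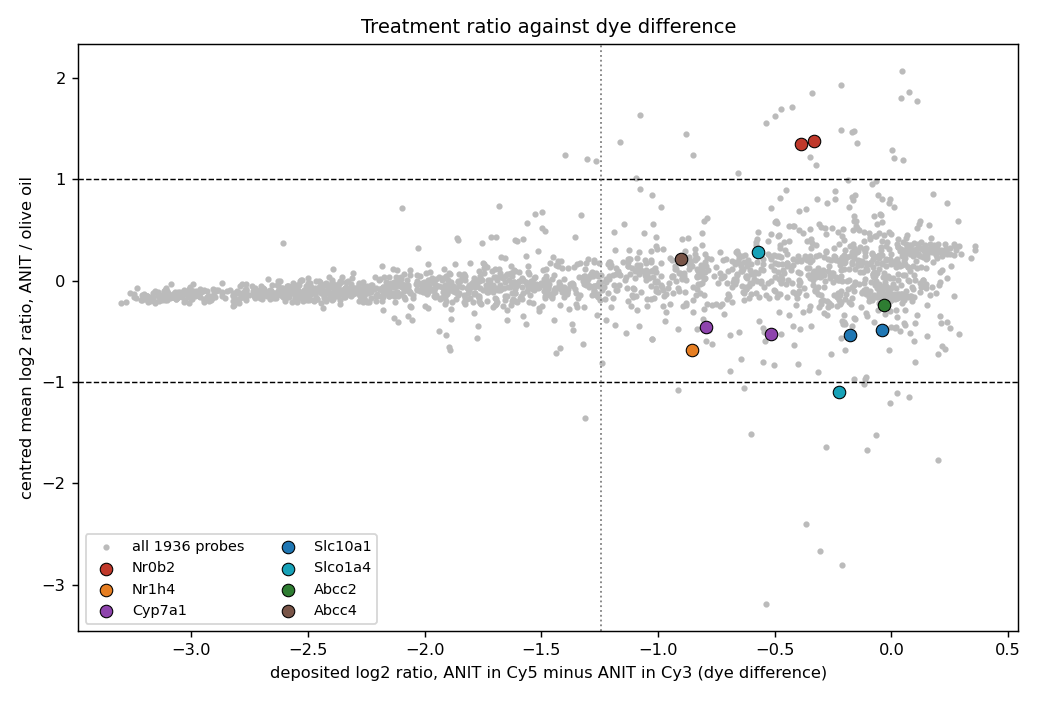
Centred mean log2 ratio of ANIT over olive oil (y axis) against the dye difference (x axis, deposited log2 ratio with ANIT in Cy5 less that with ANIT in Cy3) for all 1936 probes in grey and the 11 bile acid probes in colour. Dashed lines mark 2-fold and the dotted line the median dye difference of -1.25; the coloured points lie to the right of it, where ratios spread more widely.

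Of 63 genes of a wider list of bile acid receptors, synthesis, transport and detoxification, 12 were among the named genes, the 7 above and 5 others. None of the 5 others (0) was counted as 2-fold higher or lower, against 1.25% and 1.15% of all genes, and their median was -0.065. Rxra, the partner receptor of FXR, had probes at -0.096 and -0.033. Cyp27a1, which starts the alternative pathway of bile acid synthesis, had -0.18 ± 0.069 over probes at -0.16 and -0.20. Cyp8b1, the 12alpha-hydroxylase that sets the ratio of cholic acid to other bile acids, had -0.13 ± 0.022. Its probes shared close means of -0.15 and -0.11 but had dye differences of -2.37 and -0.12. Abcc1, a multidrug resistance pump gene, had -0.023 ± 0.069, and the cytochrome P450 gene Cyp3a23-3a1, of a subfamily that hydroxylates bile acids, had -0.061 ± 0.15. As deposited, the means of Rxra, Cyp8b1, Abcc1 and Cyp3a23-3a1 lay above 0 (0.088, 0.023, 0.13 and 0.092), so no direction can be given for them. Nor can one be given for Cyp27a1, whose deposited mean was -0.029. Its centred values of 0.49, -0.95, 0.61 and -0.87 on arrays 1 to 4 split by dye. The other list genes, Abcb11 and Baat among them, were not analysed here.

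No measured gene of the marker lists was counted as 2-fold apart, where 1.25% of all genes were counted as higher and 1.15% as lower. At such shares lists this short would seldom hold a counted gene. Of 15 cholangiocyte genes, 4 were measured (Spp1, Clu, Ggt1 and Aqp1), with 0 counted and a range from -0.12 to 0.34. Of 15 neutrophil and inflammation genes, 4 were measured, with 0 counted and a range from -0.10 to 0.33. Of 15 hepatocyte genes, 7 were measured, from -0.68 for Apoa1 to 0.79 for Fgg, with 0 counted. The arrays give ratios and no level of a gene, so these genes do not check the tissue label, and their part in the ratios of the bile acid genes was not tested. The median dye difference was -1.49 for the cholangiocyte genes and -1.26 for the neutrophil genes, against -0.40 for the bile acid genes. For the hepatocyte genes it was -0.30, near that of the bile acid genes.

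Upstream sequence was read for the members that the RefSeq promoter table of the rat assembly GRCr8 holds (5 of 7), and is shown for Nr0b2, the gene counted as higher, and for Slc10a1 and Abcc2, the transporters whose windows held motif matches. Each line runs 5′ to 3′ along the gene's strand over the 250 bases before its start, and capitals mark matches to the motifs searched.
Nr0b2 (chr5:151062910-151063159, plus strand): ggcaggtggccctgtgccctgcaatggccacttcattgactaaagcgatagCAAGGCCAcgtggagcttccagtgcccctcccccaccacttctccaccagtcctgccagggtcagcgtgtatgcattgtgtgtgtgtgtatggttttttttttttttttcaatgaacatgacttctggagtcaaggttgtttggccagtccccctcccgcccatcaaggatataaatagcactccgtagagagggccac
Slc10a1 (chr6:106357945-106358194, minus strand): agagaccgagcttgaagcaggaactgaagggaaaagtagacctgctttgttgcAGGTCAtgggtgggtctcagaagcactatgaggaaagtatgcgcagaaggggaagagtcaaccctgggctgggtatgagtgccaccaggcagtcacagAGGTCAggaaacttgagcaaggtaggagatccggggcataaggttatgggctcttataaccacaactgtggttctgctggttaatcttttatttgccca
Abcc2 (chr1:252613625-252613874, plus strand): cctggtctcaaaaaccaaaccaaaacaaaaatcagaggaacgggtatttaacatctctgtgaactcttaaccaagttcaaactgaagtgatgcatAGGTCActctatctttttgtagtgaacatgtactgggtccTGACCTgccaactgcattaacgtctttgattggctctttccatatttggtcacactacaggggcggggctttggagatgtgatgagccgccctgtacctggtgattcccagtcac
The motifs, searched on both strands, were the nuclear receptor half-site AGGTCA, its inverted repeat AGGTCANTGACCT that binds FXR with RXR, the extended half-site CAAGGTCA (which contains the half-site) and its variant CAAGGCCA. The Nr0b2 window held CAAGGCCA 199 bases before the start, a match found in 1.86% of 33469 promoter windows of that length. The Slc10a1 window held the half-site at 197 and 99 bases before the start, both in the direction of the gene. The Abcc2 window held it at 155 bases in the direction of the gene and at 115 bases on the opposite strand. A half-site occurred in 14.1% of all windows and at least 2 of them in 1.27%. The inverted repeat occurred in 0.0269% of windows and in none of the 5 read here, while the Slco1a4 and Abcc4 windows held 0 matches to any of the motifs. These matches are letters in a window and say nothing of binding. The lack of the inverted repeat says as little, since only its exact letters within 250 bases were searched and few windows held it. The motifs were chosen with earlier results of these data known, so the shares of windows are frequencies and not tests.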

How the data were processed

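Liver RNA of rats given ANIT or olive oil was compared on 4 arrays of 1 pair of RNA pools. The deposited values are log2 ratios of both channels; the log2 base and the direction were inferred, and how the authors corrected background and normalized is not given in the sources used here. Of 1936 probes, the platform annotation gives 1 gene symbol for 1432, several for 19 (left unnamed) and no entry for 485. Symbols were updated by Entrez identifier to GRCr8 (1429 probes matched, 3 did not). Gene coordinates are left out because no build is named for the probes.

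The median over all probes was subtracted from each array, a gene took the mean of its probes, and arrays were averaged within dye orientation and then over both. Size rules (2-fold and 1.2-fold with 1 sign on all arrays) took the place of a test, and the rule and the centrings were tested on simulated data. The members, lists, motifs, cuts and the reading of the table as a treatment ratio were chosen with earlier results of these data known. Named were all member probes, every measured gene of the pathway list, the 3 nearest genes of Nr0b2, Nr1h4, Cyp7a1 and Slc10a1, and the housekeeping genes; marker genes were named as lists with their extremes. Alternatives covered the zero, the averaging, the probe choice, dye orientation, left-out arrays, log base, reading, sign and size. Python 3.11.15, numpy 2.4.6, pandas 2.3.3 and matplotlib 3.10.9 were used.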

Additional observations from a re-analysis of the deposited data

How the results depend on the processing

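Setting the zero otherwise moved small ratios but turned none of the 7 gene means. As deposited, the log2 ratios were 1.52 for Nr0b2, -0.53 for Nr1h4, -0.34 for Cyp7a1, -0.36 for Slc10a1, -0.26 for Slco1a4, -0.082 for Abcc2 and 0.36 for Abcc4, with a pathway list median of -0.0031. Centred on Hprt1 and Actb, Cyp7a1 had -0.55, Slc10a1 -0.57, Slco1a4 -0.47, Abcc2 -0.30, Abcc4 0.15 and the list median -0.22, and centred on the 100 probes nearest in dye difference, Cyp7a1 had -0.58, Slc10a1 -0.58, Slco1a4 -0.50 and Abcc4 0.15. Both gave 4 members at least 1.2-fold lower in place of 2, where all genes gave 8.35% and 10.6% in place of 5.11%.

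Each dye orientation was also taken alone. With ANIT in Cy5 alone the values were 1.87 for Nr0b2, -0.42 for Nr1h4, -0.13 for Cyp7a1, 0.12 for Slc10a1, 0.075 for Slco1a4, 0.43 for Abcc2 and 0.45 for Abcc4, with a list median of 0.28 and 1 member 1.2-fold lower (34.2% of all genes). With ANIT in Cy3 alone they were 0.86, -0.93, -0.85, -1.14, -0.89, -0.90 and -0.021 in the same order, with a list median of -0.73, 5 members 1.2-fold lower (307 of all 958 genes), 0 members 2-fold higher (0.626%) and 1 member 2-fold lower (3.76%). Read as a dye ratio and turned, they were 0.50, 0.26, 0.36, 0.63, 0.48, 0.67 and 0.23, and the list median was 0.49. In this reading 0 members were 2-fold higher, 0 were 1.2-fold lower (26.7% of all genes) and 0 list genes were 2-fold apart. Of all 958 genes, 0 were 2-fold higher and 0 were 2-fold lower, so the 2-fold counts are not particular to these genes. Read as natural logs, they were 1.97, -0.98, -0.71, -0.74, -0.59, -0.34 and 0.31, with a list median of -0.22. Turning the sign gives -1.36, 0.68, 0.49, 0.51, 0.41, 0.23 and -0.21, with a list median of 0.16. It leaves 0 members 2-fold higher (1.15% of all genes), 1 member 2-fold lower (1.25%) and 1 member 1.2-fold lower (6.16%). The cause of these shifts was not tested, except that log base, sign and the turned dye ratio act by construction. The turned dye ratio of a gene depends only on the difference between its centred values in opposite orientations.

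With the probe of smallest SD within dye orientation, Cyp7a1 had -0.45, Slc10a1 -0.54, Slco1a4 0.28 (its probe 1152; -1.10 from probe 397) and the list median -0.10. At 1.5-fold, 1 member was lower (Nr1h4; 2.19% of all genes). With each array left out in turn, Nr0b2 had 1.33 to 1.40, Nr1h4 -0.71 to -0.65, Cyp7a1 -0.50 to -0.48, Slc10a1 -0.52 to -0.50, Slco1a4 -0.43 to -0.39, Abcc2 -0.26 to -0.21, Abcc4 0.20 to 0.22 and the list median -0.17 to -0.15. In these settings 1 member stayed 2-fold higher (1.25% to 1.36% of all genes) and 0 were 2-fold lower (1.15%). As before, 2 members were 1.2-fold lower (5.22% to 6.05%) and 1 list gene was 2-fold apart. The median over arrays moved no value by more than 1 SD. Taking signs from the deposited values and showing each Slco1a4 probe alone were chosen after the data were seen. No paired analysis was possible because all arrays form 1 group. Without spot brightness, dim spots could not be told from others.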

Other observations

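A further probe (238) was annotated to 3 genes of the Slco1a family, which Slco1a4 also belongs to, and entered no gene value. Its deposited ratios were -0.63, -0.41, -0.63 and -0.45 on arrays 1 to 4, and its centred mean was -0.68 ± 0.0097. It lay below 0 on every array, as probe 397 of Slco1a4 did and probe 1152 did not.

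Among the 25 genes named from the pathway list, the nearest genes and the housekeeping genes, none had 1 array set apart from the other 3 by the gap rule used for groups of 4.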
